A study of Drosophila melanogaster with 4 samples.

Results

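The genes described here are the nuclear genes of oxidative phosphorylation in Drosophila melanogaster, and the measurement is H3K4me3, histone H3 carrying 3 methyl groups on lysine 4, at their promoters in ovaries. Members were taken by name alone. They are the protein-coding genes whose symbol in the Ensembl annotation begins with ND-, Sdh, UQCR-, ATPsyn, or COX followed by a digit. This gave 88 of the 13945 protein-coding genes on the main chromosome arms. Of these, 63 are general subunits and 25 are duplicates, whose symbol ends in L, L1 or L2. ND-MNLL is a duplicate only by its spelling, because the final L belongs to the name of that subunit of complex I. Sdhaf3, an assembly factor of succinate dehydrogenase, entered the general set through its prefix.

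Ovaries came from females of 2 genotypes, with 2 ChIP-seq libraries each. The lid KD females carried the MTD-Gal4 driver and a short hairpin RNA against lid (MTD-Gal4>shRNA lid), and the control females carried the driver without the hairpin (MTD-Gal4>+). MTD-Gal4 drives expression in female germ cells, and lid encodes Lid/KDM5, a demethylase of H3K4me3. Somatic follicle cells were therefore not targeted but are part of every whole-ovary sample, and a lower level of the mark per cell cannot be told apart from fewer cells that carry it. The tissue label gives an age of 3 days for all females, whereas the extraction protocol speaks of virgins of 0 to 1 day, and the published methods give 2 days, so the age is not settled, although no source gives the groups different ages. Ovaries of many females were pooled for each library.

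The electron transport chain is built from complexes I to IV. They pass electrons from NADH and succinate to oxygen. All but complex II also pump protons across the inner mitochondrial membrane, and complex V, the ATP synthase, uses that gradient to make ATP. Most subunits are encoded in the nucleus and transcribed in nearly every cell. Drosophila also has duplicated copies of many subunit genes, and such copies are known for expression in the testis. H3K4me3 marks the first nucleosomes downstream of active promoters. A promoter without a peak is often one not in use in the tissue sampled, but a missing peak does not establish this. Among the germline markers given below, some lacked a called peak.

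The deposited lists held 12832 and 13501 peaks in the lid KD libraries, against 12087 and 25302 peaks in the control libraries. The genome background solved from the lists was 55.5 and 56.6 fragments per base in lid KD, against 60.1 and 48.4 in control. At promoters, the 2 lid KD libraries differed by 1.01 times their counting error, no more than sampling noise, and they were counted as 1 sample in the permutation tests. Rank orders are given for each library, so the 2 lid KD ranks of a gene are not independent of each other. The 2 control libraries differed by 3.10 times that error, and any lid KD library differed from any control library by 2.84 to 3.92 times. Control replicate 2 had by far the longest list and control replicate 1 stood apart on chromosome 4 and next to the centromere of chromosome 3L, so results that rest on either are given with and without it. A promoter peak is a peak that overlaps the 500 bp on either side of any annotated start of the gene. Among marker genes of the tissue, all 5 follicle cell markers had a promoter peak in all 4 libraries, as did the germline genes osk and otu. The germline gene vas had none in any library, aub had a peak in the 2 lid KD libraries only and piwi in control replicate 1 only. Of 6 testis markers, 5 had no promoter peak in any library, and sa had a peak in 1. Of 3 muscle markers, Tm2 had a promoter peak in all 4 libraries and 2 had none. Of 3 neuron markers, elav had a peak in all 4, nSyb in 3 and Syt1 in none. Of 3 fat body markers, Lsp1alpha and Fbp1 had a peak in control replicate 2 alone and Lsp2 had none. Over all protein-coding genes, 48.3% had a promoter peak in all 4 libraries and 34.5% in none.

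The general subunits carried H3K4me3 almost without exception and the duplicates mostly did not. A promoter peak was present at 59 and 59 of the 63 general subunits in the lid KD libraries, against 63 and 59 in the control libraries. Of the 25 duplicates, 5 and 4 had a promoter peak in the lid KD libraries, against 5 and 10 in the control libraries. In all 4 libraries together, 59 of 63 general subunits (93.7%) and 4 of 25 duplicates (16%) were called, beside 48.3% of all protein-coding genes. No general subunit lacked a peak in every library, whereas 14 duplicates did, which is 56% of them, beside 34.5% of all protein-coding genes. Every general subunit of complexes II and IV was called in all 4 libraries, as were 31 of 33 of complex I, 5 of 6 of complex III and 10 of 11 of complex V.

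**Figure D1:**
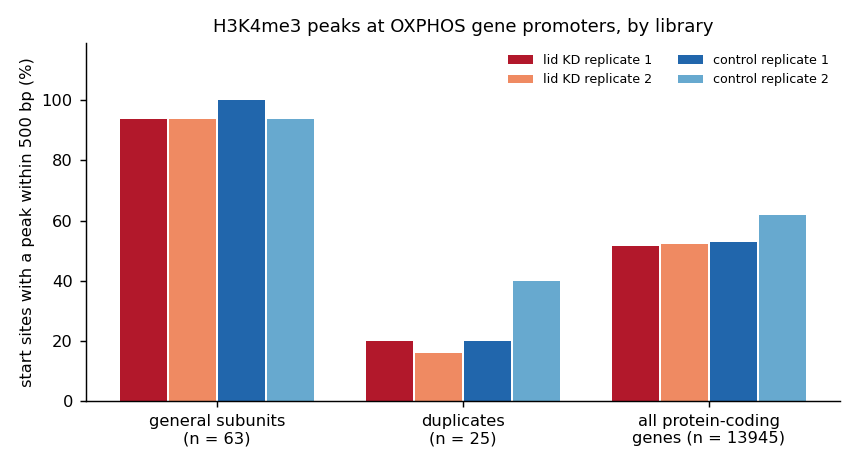
Share of genes with an H3K4me3 peak within 500 bp of a start site (vertical axis, percent) for the 63 general subunits, the 25 duplicates and all 13945 protein-coding genes, with 1 bar for each library. General subunits stand at 93.7% or 100%, duplicates between 16% and 40%, and control replicate 2 is highest for duplicates and for all genes.

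The promoters of a few gene pairs show what is compared. The 100 bases before the outermost start are given for 2 general genes of complex I and for the duplicate of each, because the general gene carried the mark in all 4 libraries and the duplicate did not. Sequences are those of the Release 6 (dm6) assembly, read in the direction of transcription with the last base next to the start. Capitals mark any match to the searched words given further on.
ND-20 (chrX:15986809-15986908, minus strand): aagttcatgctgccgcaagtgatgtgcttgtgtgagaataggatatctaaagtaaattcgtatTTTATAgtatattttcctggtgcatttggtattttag
ND-20L (chr3R:29515617-29515716, plus strand): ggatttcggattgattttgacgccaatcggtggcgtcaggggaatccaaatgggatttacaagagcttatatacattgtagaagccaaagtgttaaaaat
ND-24 (chrX:17631989-17632088, plus strand): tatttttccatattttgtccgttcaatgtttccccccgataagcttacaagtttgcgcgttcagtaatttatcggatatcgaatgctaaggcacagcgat
ND-24L (chr3L:17320812-17320911, minus strand): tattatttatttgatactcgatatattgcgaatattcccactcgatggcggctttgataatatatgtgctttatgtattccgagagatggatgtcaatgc
ND-20 holds a TATA word 37 bases before the start, and the other 3 hold none of the searched words in these 100 bases.

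Each of the 24 true duplicates was set beside the general gene it resembles, which gave 21 counterparts, since ND-51, COX7A and levy each have a pair of copies. The counterparts levy, cype and sun, which encode subunits of complex IV or V, do not carry a symbol of the rule. The encoded proteins were identical to their counterpart at 30.3% to 85.6% of aligned positions, with a median of 51.6%. Of the counterparts, 19 of 21 had a promoter peak in all 4 libraries, and the exceptions were ATPsynbeta and UQCR-11. Of the 24 duplicates, 16 had fewer exons than the counterpart, 7 had as many and 1 had more. UQCR-14L, the closest copy at 85.6% identity, had a promoter peak in control replicate 2 alone, and COX7AL2 at 37.7% had a peak in all 4 libraries.

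**Figure D2:**
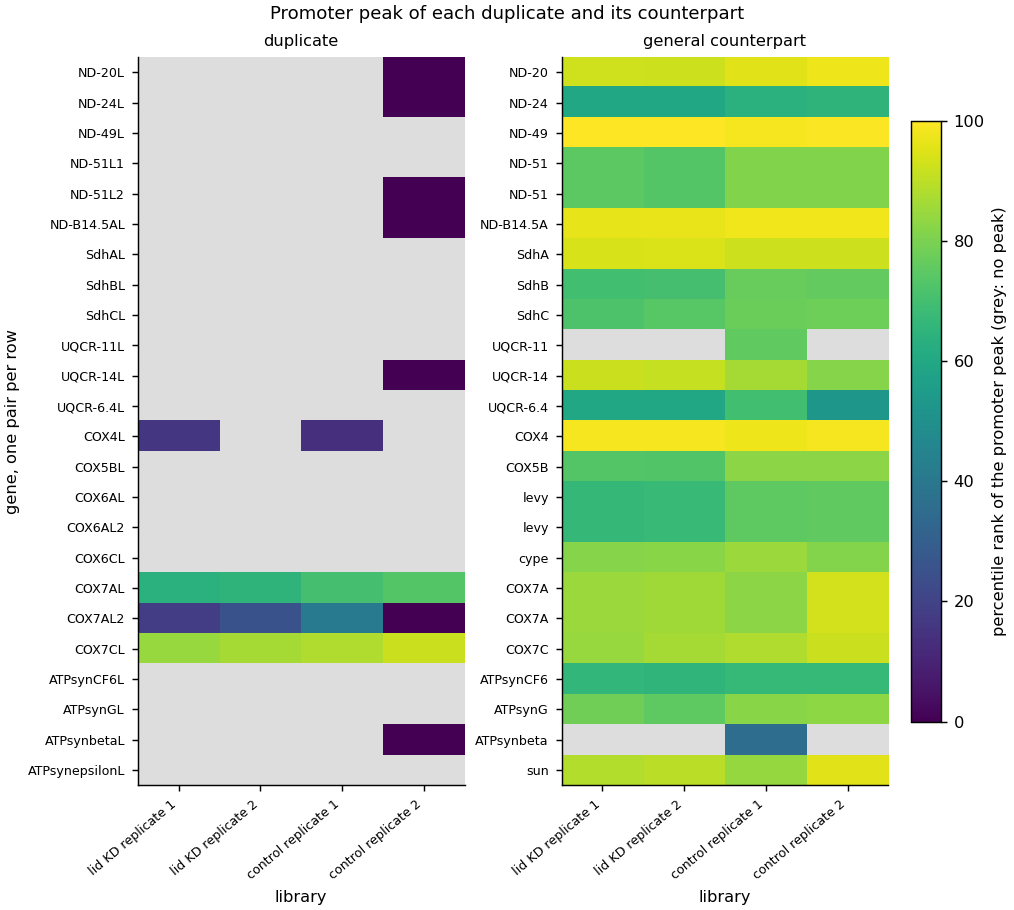
Percentile rank of the promoter peak (colour, 0 to 100) in each library (columns) for the 24 duplicates (left) and the general counterpart of each (right), ordered by complex. Grey means no promoter peak, and 0 means a peak outside the 12087 strongest of its list, which is where the 6 duplicates called in control replicate 2 alone lie.

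Complex I takes electrons from NADH. Its duplicates are ND-20L, ND-24L, ND-49L, ND-51L1, ND-51L2 and ND-B14.5AL. ND-49L and ND-51L1 had no promoter peak in any library, although ND-49 and ND-51, which encode core subunits, had a peak in each. ND-51 is the subunit that binds NADH, and its peak had a fold enrichment of 5.87 and 5.59 in the lid KD libraries, against 5.77 and 7.33 in the control libraries. The other 4 complex I duplicates were called in control replicate 2 only. There ND-20L had a fold enrichment of 2.13, ND-24L of 1.97, ND-51L2 of 2.19 and ND-B14.5AL of 1.54. The counterpart ND-20, an iron-sulfur subunit, had 10.3 and 9.97 in lid KD, against 9.09 and 13.9 in control.

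Complex II, succinate dehydrogenase, links the electron transport chain to the citric acid cycle. Its duplicates SdhAL, SdhBL and SdhCL had no promoter peak in any library, and the genes they copy, for the flavoprotein SdhA, the iron-sulfur protein SdhB and the membrane anchor SdhC, had one in all 4. SdhA had a summit pileup of 1096 and 1084 fragments in lid KD, against 855 and 794 in control. Pileups were not scaled between libraries. In centred log2 coverage, defined further on, SdhA had -0.289 and -0.273 in lid KD, against -0.172 and -0.478 in control, and the groups overlapped. The strongest peak within 1000 bp of SdhBL had its summit 1085 to 1090 bp upstream of the start in the 4 libraries, and the start of the neighbouring gene Flacc lies 810 bp from that of SdhBL.

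In complexes III and V, which hold the cytochrome bc1 and ATP synthase subunits, UQCR-11L, UQCR-6.4L, ATPsynCF6L, ATPsynGL and ATPsynepsilonL were called in no library. UQCR-14L was called in control replicate 2 at a fold enrichment of 1.66, with the summit 490 bp upstream of the start. ATPsynbetaL was called in the same library at 1.87, but that summit lay nearest to the start of CG13074. The 6 duplicates called only there had a coverage of 1.55 to 2.71 times the genome background of that library. Without control replicate 2, 20 of the 25 duplicates had no promoter peak. With every list shortened to the 12087 strongest peaks, the count was also 20.

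Complex IV, cytochrome c oxidase, held the only true duplicates called in more than 1 library. COX5BL, COX6AL, COX6AL2 and COX6CL had no promoter peak in any library. COX4L had a weak peak in lid KD replicate 1, at a fold enrichment of 1.73, and in control replicate 1, at 1.54. COX7AL had a peak of 1329 and 1335 fragments in lid KD, against 1143 and 1137 in control. By percentile rank the order was opposite, with 64.0 and 64.9 in lid KD, against 70.4 and 73.4 in control. Its centred log2 coverage was also lower, at -0.011 and 0.027 in lid KD, against 0.247 and 0.040 in control. The summit lay 340 to 390 bp upstream, and the start of COX7AL was not the nearest to that summit in any library. COX7CL shared the peak of COX7C, whose summit lay 551 to 734 bp upstream of the start of COX7CL.

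COX7AL2 (chr2L:2192525-2197912, minus strand) was the remaining duplicate with a peak in all 4 libraries, and that peak was its own. Its fold enrichment was 1.77 and 1.93 in the lid KD libraries, against 2.00 and 2.14 in the control libraries. The summit lay 147 to 174 bp downstream of the start in the 4 libraries. With lists of equal length its peak in control replicate 2 was lost, which left 3 duplicates called in all 4 libraries. Its pileup of 99 and 110 fragments in lid KD, against 121 and 122 in control, compares with 1832 and 1829 fragments in lid KD, against 1398 and 1816 in control, at COX7A, the general gene. ND-MNLL, which is not a copy, had a peak of 2330 and 2272 fragments in lid KD, against 1725 and 2320 in control, with the summit 502 to 512 bp upstream and nearest to p115. A second peak lay 149 to 226 bp downstream of a start of ND-MNLL, with 1673 and 1632 fragments in lid KD, against 1161 and 1482 in control. That start is shared with CG45089, annotated on the same transcribed region, so the signal belongs to both.

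Counting a peak only where its summit lay within the window and the gene's own start was the nearest left 46 of 63 general subunits and 2 of 25 duplicates, COX7AL2 and ND-MNLL, called in all 4 libraries. The same rule left 35.7% of all protein-coding genes.

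The 4 general subunits not called in every library were called in control replicate 1 alone. ND-MLRQ (chr3L:23339326-23345936), ND-AGGG (chr3L:24976254-24977118) and UQCR-11 (chr3L:25120709-25126171) lie in the part of chromosome 3L next to the centromere, and ATPsynbeta (chr4:1031484-1034917) lies on chromosome 4. All 4 are on the plus strand. ND-MLRQ and ND-AGGG encode accessory subunits, UQCR-11 a small subunit of complex III and ATPsynbeta the catalytic subunit of the ATP synthase. The 100 bases before the start of ND-MLRQ, the strongest of the 4, hold none of the searched words.
ND-MLRQ (chr3L:23339226-23339325, plus strand): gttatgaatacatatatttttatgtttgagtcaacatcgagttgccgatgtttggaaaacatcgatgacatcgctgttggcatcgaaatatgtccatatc
In control replicate 1 the peak of ND-MLRQ had a fold enrichment of 7.72, a pileup of 471 fragments and a rank of 91.7 among the 12087 strongest peaks, where 100 is the strongest. The nearest peaks of the other libraries lay 12644 and 12167 bp from its start in lid KD, against 4401 bp in control replicate 2. UQCR-11 had a fold enrichment of 5.12 and ND-AGGG of 2.75 in control replicate 1.

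ATPsynbeta differed from those 3 genes. Its window held a peak of 1.84-fold enrichment in control replicate 1, but a far stronger peak lay just outside the window in every library. That peak had a fold enrichment of 11.2 and 11.3 in lid KD, against 7.30 and 16.6 in control, with its summit 853 to 875 bp upstream of the outermost start. The gene whose start is nearest to that summit was not determined, and a start of CG11076 lies 107 bp from one of ATPsynbeta. With a window of 1000 bp on either side, ATPsynbeta was called in all 4 libraries and the count of general subunits was 60 of 63.

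The 2 segments were set against the rest of the genome, because all 4 genes fell in them. This choice was made after their values were seen. Chromosome 4 and the end of 3L from ND-MLRQ to the centromere hold 109 protein-coding genes. Of these, 27 and 26 were called in the lid KD libraries, against 63 and 18 in the control libraries, and 36 were called in control replicate 1 alone. Elsewhere, 176 of 13836 genes were called in that library alone. Centred log2 coverage, which is the log2 of summit pileup over the genome background minus the median over all promoters called in 4 libraries, had a median of -1.71 and -1.67 in lid KD, against -0.44 and -2.64 in control, over the 18 genes of the segments called in all 4. Control replicate 1 was therefore the highest there and control replicate 2 the lowest, with both lid KD libraries between them. Why this library differed was not tested. The other general subunit of the segments, ND-49 on chromosome 4, was called in each library. Its peak was enriched 21.6-fold and 21.5-fold in lid KD, against 11.5-fold and 17.4-fold in control. Outside the segments all 58 general subunits were called in all 4 libraries, and inside them 1 of 5 was.

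To compare the libraries, each list was shortened to its 12087 strongest peaks and each peak given its percentile rank by fold enrichment. Over the 59 general subunits with a peak in all 4 libraries the mean rank had a median of 79.7, and over all 6735 genes with such peaks it had a median of 77.0. Median summit coverage of the general subunits was 32.1 and 30.1 times the genome background in lid KD, against 21.6 and 34.1 times in control. For all 6735 genes it was 24.1 and 23.1 times in lid KD, against 16.0 and 22.9 times in control. The general subunits were thus above the middle of marked promoters by coverage in every library and close to it by rank.

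The local background that the peak caller divided by was also above that of other promoters. It was 4.99 and 4.87 times the genome background at the general subunits in lid KD, against 3.78 and 4.43 times in control. At all 6735 genes it was 3.39 and 3.31 times in lid KD, against 2.71 and 2.92 times in control. Peaks of the general subunits were narrower than those of all genes in every library. Their median width was 737 and 724 bp in lid KD, against 821 and 695 bp in control. At all 6735 genes it was 834 and 849 bp in lid KD, against 871 and 767 bp in control. Widths were similar between lid KD and control, with a median log2 ratio of 0.01 at the general subunits and 0.01 over all genes.

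Levels spread widely within each complex. In complex I, whose 31 tested genes had a median rank of 81.6, the accessory subunit gene ND-B14.7 had the highest mean rank at 99.7 and ND-B22 the lowest at 52.3. In complex II the median was 75.4, with SdhA highest at 93.2 and the membrane anchor gene SdhD lowest at 67.9. In complex III the median was 61.3, with UQCR-Q highest at 95.3 and UQCR-C2, which encodes a core protein, lowest at 57.2. The peaks assigned to these 2 complex III genes had summits nearest to CG46525 and to Rpn12, a proteasome subunit gene. In complex IV the median was 87.2, with COX4 highest at 98.3 and COX6B lowest at 60.1. The summit of the peak assigned to COX6B was nearest to the shared start of CG33932 and Rpp20 in each library. In complex V the median was 82.1, with ATPsynE highest at 95.0 and ATPsynC, the gene for the subunit of the rotor ring, lowest at 58.1.

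Rank and coverage ordered these genes differently. ND-B22 had 1860 and 1815 fragments at its summit in lid KD, against 1424 and 1623 in control. ND-B14.7 had 1899 and 1776 in lid KD, against 1259 and 1762 in control. Their fold enrichments were 3.10 and 3.09 against 3.25 and 3.56 for ND-B22, lid KD against control, and 19.4 and 18.7 against 12.3 and 20.9 for ND-B14.7, so genes at the 2 ends of complex I by rank had much the same pileup.

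By fold enrichment, the general subunits as a set ranked a few points lower in both lid KD libraries than in either control library. Their median rank was 78.4 and 77.6 in the lid KD libraries, against 82.6 and 83.9 in the control libraries. The median difference over the 59 genes, lid KD minus control, was -4.12 points, with quartiles of -6.39 and -1.53, beside -1.27 points over all 6735 genes. Both lid KD ranks lay below both control ranks for 43 of 59 genes, or 72.9%, beside 40% of all genes tested. Both lay above for 5 of 59, or 8.47%, beside 17.1% of all genes. These 5 were UQCR-14, Sdhaf3, SdhA, ND-49 and COX4, and the remaining 11 overlapped. As 1 value per library, the median rank averaged 78.0 in lid KD (2 libraries counted as 1 sample) and 83.2 ± 0.94 in control (SD, n = 2), and the exact two-sided permutation test of these 3 values gave p = 0.3333, the smallest it allows.

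**Figure D3:**
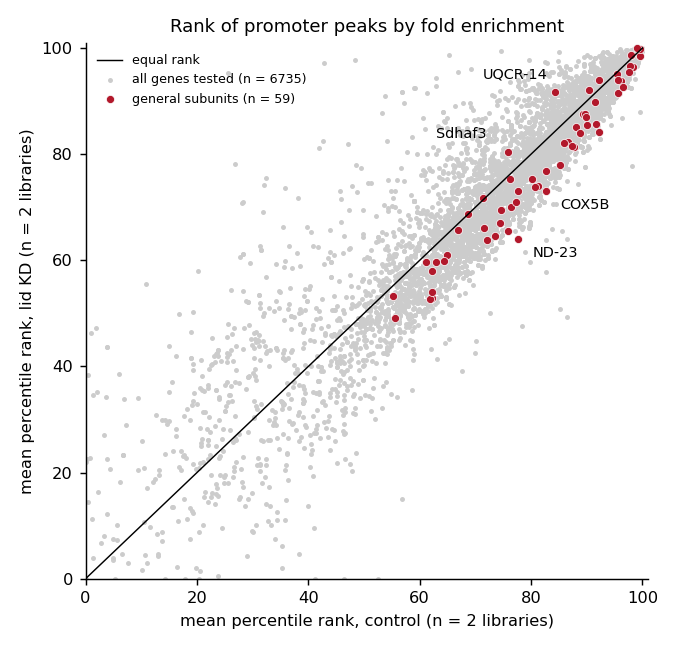
Mean percentile rank of the promoter peak in lid KD (vertical axis) against control (horizontal axis) for all 6735 genes tested (grey) and the 59 general subunits (red), with a line of equal rank. Most general subunits sit a few points under the line, ND-23 and COX5B farthest below among those named and UQCR-14 and Sdhaf3 above it.

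The difference in rank depended on the measure. With peaks ranked by summit pileup in place of fold enrichment, the median difference was -0.42 points for the general subunits and -0.36 points for all genes, and 23 of 59 general subunits (39.0%) lay below in both lid KD libraries, beside 29.6% of all genes. Ranked by -log10 p, the median difference was -1.87 points and 36 of 59 lay below, beside -0.31 points and 30.9% of all genes. The median rank of the general subunits was 95.2 by pileup and 90.3 by -log10 p, close to the highest rank of 100. By fold enrichment it was 79.7, so points are not directly comparable between the measures. In centred log2 coverage the median difference was -0.11, beside -0.04 over all genes. For the general subunits it was -0.18 without control replicate 1 and -0.06 without control replicate 2. As 1 value per library it was 0.40 in lid KD (2 libraries counted as 1 sample) and 0.50 ± 0.10 in control (SD, n = 2), with p = 0.6667 by the same exact permutation test. Before centring, coverage over the genome background was higher in lid KD at these genes, with a median log2 difference of 0.19, but the median over all genes was 0.26.

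Only ND-23 passed the margin of 10 points between the closest lid KD and control ranks, which 1.38% of all genes tested passed downward and 1.44% upward. ND-23 (chr3R:15836048-15837117, minus strand) encodes an iron-sulfur subunit of complex I. Its rank was 64.4 and 63.6 in the lid KD libraries, against 79.0 and 76.4 in the control libraries. The groups did not overlap and the gap was 12.03 points. Its fold enrichment was 4.65 and 4.47 in lid KD, against 5.51 and 6.44 in control. Its pileup was 1688 and 1641 fragments in lid KD, against 1359 and 1672 in control, and the groups overlapped. Pileup is not scaled between libraries, and in centred log2 coverage the groups did not overlap. On that scale ND-23 had 0.334 and 0.325 in lid KD, against 0.497 and 0.596 in control. Ranked by pileup, ND-23 did not pass the margin. The start of spn-E, a gene of the piRNA pathway of the germline, lies 302 bp from that of ND-23, and the peak, which lies on the ND-23 side, also falls in the promoter window of spn-E. The 100 bases before the start of ND-23 hold TATA words 97 and 90 bases upstream.
ND-23 (chr3R:15837118-15837217, minus strand): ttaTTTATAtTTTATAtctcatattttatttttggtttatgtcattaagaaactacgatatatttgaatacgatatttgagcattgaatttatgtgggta

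Just outside the margin lay COX5B, for a nuclear subunit of complex IV, with a gap of 9.24 points. Its rank was 73.3 and 72.8 in lid KD, against 82.6 and 82.7 in control. Its pileup was 1958 and 1852 fragments in lid KD, against 1495 and 2023 in control, so that the groups overlapped by pileup. Its centred log2 coverage was 0.548 and 0.500 in lid KD, against 0.635 and 0.871 in control, without overlap. The peak lies on the COX5B side but also falls in the promoter window of IFT52, whose start is 298 bp away. In the other direction the widest gap was 4.81 points at UQCR-14, which ranked 91.9 and 91.4 in lid KD, against 86.5 and 81.9 in control. Sdhaf3 ranked 79.8 and 80.9 in lid KD, against 75.5 and 76.4 in control. Without control replicate 1, 5 general subunits passed the margin downward (ATPsynC, COX8, ND-15, ND-23 and UQCR-C2), beside 6.21% of all genes. Without control replicate 2, 3 passed (ATPsyngamma, ND-23 and ND-PDSW), beside 7.30% of all genes. Leaving out either lid KD library left ND-23 alone.

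The counts differed between complexes. Both lid KD ranks lay below both control ranks for 24 of 31 genes of complex I, 3 of 5 of complex II, 2 of 5 of complex III, 5 of 8 of complex IV and 9 of 10 of complex V, beside 40% of all genes tested. The median differences were -3.91, -4.58, -1.43, -4.30 and -5.04 points for complexes I, II, III, IV and V, beside -1.27 points over all genes, so complex III was close to the background in both. Complex II held members on both sides, since SdhB, SdhC and SdhD lay below and SdhA and Sdhaf3 above. Whether complexes differ from each other was not tested.

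**Figure D4:**
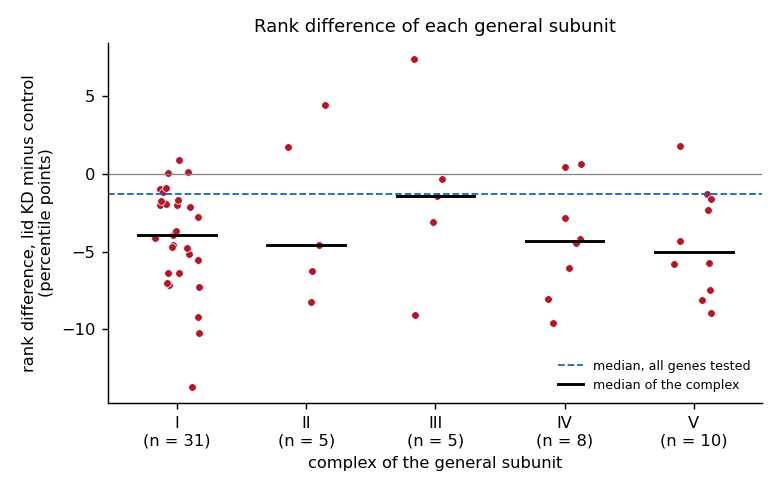
Difference in mean percentile rank, lid KD minus control (vertical axis, percentile points), for each of the 59 general subunits by complex (points), with the median of the complex (black bar) and the median of all 6735 genes tested (dashed line). The complex medians run from -5.04 to -1.43 points, all under the -1.27 points of all genes, and single genes run from -13.7 points at ND-23 to 7.40 at UQCR-14.

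Most other genes of the pathway, listed by name, also had a promoter peak in all 4 libraries, as did 48.3% of all protein-coding genes. Of 10 annotated subunits and carriers with other symbols, 9 had a promoter peak in all 4 libraries. The exception was Cyt-c1L, called in control replicate 2 alone. Both lid KD ranks lay below both control ranks for 5 of the 9 and above for 2, ox and Cyt-c-p, and none passed the margin. Cyt-c-p, which encodes cytochrome c, ranked 88.1 and 87.6 in lid KD, against 65.4 and 79.7 in control. Of 13 annotated enzymes of the citric acid cycle, 11 were called in all 4 libraries and 5 of the 11 lay below. The other 2 were mAcon2, called in no library, and Mdh1, called in control replicate 1 alone. All 7 annotated regulators of mitochondrial genes were called in all 4 libraries, with 3 below. The share below was 40% over all genes tested, to which the counts of the enzymes and the regulators were close. The median differences of the 3 lists were -4.80, -3.65 and -3.04 points, beside -1.27 points over all genes.

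The summit lay downstream of the start at most general subunits. It was downstream at 55 of 59 (93.2%) in each library, beside 72.3% and 72.1% of all genes tested in lid KD, against 71.9% and 72.1% in control. The median position was 324 and 312 bp downstream in lid KD, against 283 and 302 bp in control. For all genes tested it was 255 and 253 bp in lid KD, against 191 and 212 bp in control. At 53 general subunits the summit was downstream in all 4 libraries, at 3 it was upstream in all 4 and at 3 the libraries differed. Positions were measured from the annotated start of the gene that lies nearest to the summit, and a peak shared with a divergent neighbour counts for both genes.

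**Figure D5:**
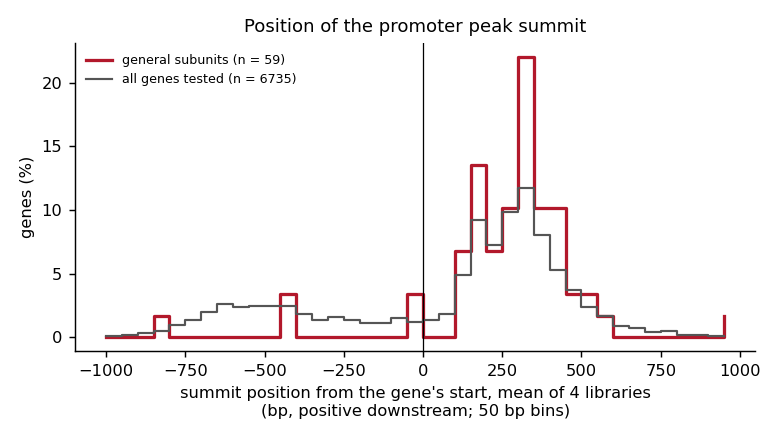
Position of the promoter peak summit from the gene's annotated start nearest to it (horizontal axis, bp, mean of 4 libraries, downstream positive, 50 bp bins). The vertical axis gives the percentage of the 59 general subunits (red) and of all 6735 genes tested (grey). The red line has its main mass between 100 and 500 bp downstream and little upstream, where the grey line keeps a broad shoulder. Positions beyond 1000 bp are not drawn.

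Genes of the 2 classes also differed in exon number and in neighbouring starts, which the naming rule did not use, but hardly in promoter GC content. A single exon was annotated for 1 of 63 general subunits and 8 of 25 duplicates, beside 16.2% of all protein-coding genes. Another gene's start lay within 500 bp for 37 of 63 general subunits (58.7%) and 4 of 25 duplicates (16%), beside 30.9% of all genes and 51.6% of the 6735 genes with a peak in all 4 libraries. Median GC content of the promoter, from 250 bases before to 50 after the start, was 34.3% for general subunits and 34% for duplicates. It was 38% for all genes and 36.3% for the 6735 genes with a peak in all 4 libraries.

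In the same window 4 promoter elements were searched on both strands. They were the core of promoter motif 1 (GGTCACAC), the DNA replication-related element, or DRE (TATCGATA), the core of a nuclear respiratory gene element (TTACATAA, TTACGTAA, TTATATAA or TTATGTAA) and the TATA box (TATAAA). A match may share bases with a match to another element. Motif 1 was present at 15 of 63 general subunits (23.8%) and at 1 of 25 duplicates, COX7AL, beside 7.70% of all promoters and 14.8% of those with a peak in all 4 libraries. The DRE was present at 8 of 63 and 1 of 25, beside 9.36% of all and 17.1% of marked promoters. The nuclear respiratory word was present at 5 of 63 and 1 of 25, beside 5.18% of all, and TATAAA at 40 of 63 and 9 of 25, beside 45.8%. The matches below are shown because motif 1 was the word with the highest ratio of its share among general subunits to its share of all promoters. By the difference of the shares TATAAA was higher. Each line gives 30 bases before the start with motif 1, read on either strand, in capitals.
COX4 (chr2L:19958640-19958669, plus strand): attcgagatgtGGTCACACttctctgcatg
COX5A (chr3R:11819313-11819342, plus strand): ttgaagatgcaGTGTGACCgcaattaaatc
ND-PDSW (chr2L:3466069-3466098, plus strand): gagcgaagccaGTGTGACCgcagtgtgcca
ATPsynD (chr3R:19094884-19094913, plus strand): ggcagctgataGTGTGACCgacccgagggt
ATPsynC (chr3R:31219778-31219807, minus strand): actactgttatGGTCACACtgcgcctattg
The DRE matches of 3 further windows are shown in the same way, because members with a DRE included 2 of the 5 that ranked above control in both lid KD libraries. This was not particular to the DRE. Of the same 5, ND-49 and Sdhaf3 held the nuclear respiratory word, and UQCR-14, Sdhaf3, ND-49 and COX4 held TATAAA.
COX4 (chr2L:19958600-19958629, plus strand): gcgattgaataTATCGATAtattaatattt
UQCR-14 (chrX:16286215-16286244, plus strand): tgagtgcgataTATCGATAggtgcagtgtg
ND-B14.5A (chrX:2172444-2172473, plus strand): ttcgcgatagtTATCGATAagtatatcaat
COX4 was the only member with both motif 1 and the DRE. Of the 8 general subunits with a DRE, 3 had both lid KD ranks below both control ranks and the median difference was -1.09 points, whereas 40 of 51 without it lay below and the median was -4.34 points. Over all genes tested, 40.1% with a DRE and 39.96% without lay below. The nuclear respiratory word showed a like contrast. Of 5 general subunits with it, 2 lay below and the median was -1.70 points. Of 54 without it, 41 lay below and the median was -4.15 points. Over all genes tested, 45.8% with that word and 39.6% without lay below. The 15 general subunits with motif 1 had a median difference of -5.53 points and 10 lay below, and the 44 without had -3.84 points and 33 below. These words were not related to the mark by any test.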

How the data were processed

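H3K4me3 ChIP-seq peaks were available for 2 lid KD and 2 control ovary libraries. According to the methods and the labels, the authors aligned paired-end reads to dm6 with Bowtie2, removed duplicates with Picard and used MACS2 on each library, keeping peaks up to a q-value of 0.1. Whether an input was used is not given in the sources used here. The deposited fold enrichment of a peak is the ratio of its summit pileup to the local background of the same library, and the p- and q-values are given as −log10. The deposited score column was not used.

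Pileup and background were solved from the fold enrichment and the −log10 p under a Poisson model, for 99.9% or more of peaks per library. Pileups had a median of 349 and 291 fragments in lid KD and 281 and 117 in control, which gives counting errors of 5.35%, 5.86%, 5.97% and 9.25% of a single peak. Read totals were not used. Starts, exons and coding sequences came from Ensembl release 115, and genomic bases from the RefSeq copy of the Release 6 assembly, because no table of promoters was used. A gene took the strongest peak overlapping 500 bp on either side of any start by at least 1 base. Ranks were compared within the 12087 strongest peaks of each list, and a gene passed when both lid KD ranks lay at least 10 points from both control ranks on the same side. Groups came from the genotype labels. Exact permutation tests used 1 value for the lid KD pair and 1 for each control library. The methods describe the libraries of a group as biological replicates made from pooled ovaries. Every duplicate, every general subunit lacking a peak in some library or passing the margin, the highest and lowest ranked of each complex and each counterpart were named. The members and lists were chosen with earlier results of these data known. Alternatives changed the window, overlap, q-value, starts, ranking, margin, GC class, block and libraries. The solver, window assignment and rank call were tested on simulated data. Python 3.11.15, pandas 2.3.3, scipy 1.17.1 and Biopython 1.88 were used.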

Additional observations from a re-analysis of the deposited data

How the results depend on the processing

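The exact permutation tests, with the lid KD pair as 1 sample, could give no p under 0.3333, and no model across genes was fitted. The lists hold only what was called, so that a promoter without a peak may carry a weak signal. Among peaks at the genome background, the pileup at percentile 1 was 80 and 81 fragments in lid KD and 84 and 71 in control. Of 122 alternative values, 93 stayed within 1.5 times a count or within the control spread of a median. The 93 include the median differences with a replicate block, which could not change. The other 29 moved further, and the cause was not tested. Leaving out a library in turn gave 59 to 59 general subunits and 4 to 4 duplicates called in all remaining libraries, 14 to 20 duplicates called in none, 0 to 0 general subunits passing upward and 1 to 5 downward, a median rank difference of -4.74 to -3.81, a centred coverage difference of -0.18 to -0.06, a median rank of 78.7 to 81.2 and a log2 width ratio of -0.09 to 0.06. A window of 1000 bp gave 7 duplicates called in all 4 libraries and 8 in none, and requiring the gene's own start nearest the summit gave 2 in all 4. Ranks by −log10 p gave a median rank difference of -1.87 and a median rank of 90.3. Ranks by summit pileup gave -0.42, 95.2 and 0 general subunits passing downward. Lists as deposited gave -7.11, 82.9 and 2 passing downward. Outermost starts gave a median rank of 78.0. Margins of 5 and 20 points gave 14 and 0 passing downward. Ranks within 10 classes of promoter GC content gave 2 passing upward (Sdhaf3 and UQCR-14), 3 downward (COX5B, ND-23 and ND-ACP) and a median difference of -5.48. Coverage that was not centred gave a median difference of 0.19. The segments on chromosome 4 and proximal 3L alone, chosen after seeing the data, held 1 general subunit called in all 4 libraries.

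Over 6735 genes, the deviations of same-numbered libraries had a correlation of -0.10 for both numbers. With 2 libraries per group the 2 correlations are equal by construction. The 2 lid KD libraries also differed by no more than counting error, so the correlation cannot decide whether the numbers pair libraries. The numbers crossed between groups, tried after seeing the data, gave 0 passing upward and 1 downward. With the replicate number as a block, 0 general subunits passed upward and 1 downward. The median rank difference of -4.12 and the coverage difference of -0.11 cannot change with this block. A mean of paired differences equals the difference of the group means.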
